A study of Mus musculus with 16 samples.

Results

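The sarcomere's thin filament switch was followed through 10 genes: Tnnt2, Tnni3 and Tnnc1, which encode the troponin T, troponin I and troponin C of the adult heart; Tnni1, Tnnt1 and Tnni2, which encode troponins of fetal heart or skeletal muscle; and the tropomyosin genes Tpm1, Tpm2, Tpm3 and Tpm4. They were the entries of the gene count table whose Ensembl identifiers carried these symbols, 10 of 55487 genes, and all 10 were among the 18275 genes expressed highly enough to be tested.

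Tropomyosin lies along the actin filament and covers the sites where myosin binds. The troponin complex holds it there: troponin T ties the complex to tropomyosin, troponin I inhibits contraction, and troponin C releases that inhibition when it binds calcium. The fetal heart uses the slow skeletal troponin I encoded by Tnni1 and exchanges it for Tnni3 around birth, and Tpm1 encodes the alpha tropomyosin that predominates in the adult rodent heart.

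RNA was sequenced from the heart apex of 16 male mice, 1 library per mouse, with 4 libraries in each of 4 groups. The groups combined 2 genotypes, wild-type control mice (Ctrl) and mice in which the long noncoding RNA Cardinal had been knocked out with CRISPR/Cas9 (KO), with 2 operations, transverse aortic constriction (TAC), which tightens a ligature around the aorta so that the heart pumps against a higher pressure, and a sham operation without the ligature. Tissue was taken 4 weeks after surgery. No limit of the knockout to one cell type is described, and the age at surgery and the number of founder lines are not given in the sources used here.

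Libraries held 53169437 to 79404714 counts. Gene levels are CPM, counts scaled to the size of the library with edgeR's TMM factors, with mean ± SD over 4 libraries, and a gene was called changed at an adjusted p under 0.05 in edgeR's quasi-likelihood test with Benjamini-Hochberg adjustment over all 18275 genes tested. Cardinal, which the annotation lists as Gm12295, measured 3.54 ± 0.28 CPM in Ctrl after sham surgery and 0.465 ± 0.119 CPM in KO, but the library labelled KO TAC 4 held 4.55 CPM against 0.276 to 0.371 CPM in the other 3 KO TAC libraries. The highest Ctrl value was 8.02 CPM in Ctrl TAC 1, against 2.69 to 3.37 CPM in the other 3 Ctrl TAC libraries. Mitochondrial genes took 26.8% to 28.8% of the counts in the sham libraries and 21.9% to 27.0% in the TAC libraries. The animal numbers in the titles began with 25 for 3 Ctrl TAC mice and 1 KO TAC mouse, the one labelled KO TAC 4, and with 3 for all other mice.

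The 250 bases upstream of the RefSeq transcription start in GRCm38.p6 are shown for 5 of the genes the results turn on. Tnni3 and Tnnt1 lie on the same strand of chromosome 7, 1923 bases apart, and fell together after TAC. Tnnc1, the partner of Tnni3 in the same complex, did not fall, and Tpm2 rose where its relative Tpm1 did not. Capitals mark 2 sequences that a search of both strands found, CATTCC or its reverse complement GGAATG, the core of the MCAT element bound by TEAD factors, and the TATA box TATAAA.
Tnni3 (chr7:4522529-4522778, minus strand): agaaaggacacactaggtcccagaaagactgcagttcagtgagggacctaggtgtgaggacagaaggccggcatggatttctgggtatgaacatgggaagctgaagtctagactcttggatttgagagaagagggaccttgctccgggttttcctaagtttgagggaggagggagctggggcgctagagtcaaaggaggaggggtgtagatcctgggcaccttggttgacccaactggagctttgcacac
Tnnt1 (chr7:4515976-4516225, minus strand): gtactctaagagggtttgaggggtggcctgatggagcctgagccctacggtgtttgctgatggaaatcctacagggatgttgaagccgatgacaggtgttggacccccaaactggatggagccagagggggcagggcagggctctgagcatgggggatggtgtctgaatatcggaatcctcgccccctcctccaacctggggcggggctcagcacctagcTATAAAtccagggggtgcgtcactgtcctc
Tnnc1 (chr14:31208062-31208311, plus strand): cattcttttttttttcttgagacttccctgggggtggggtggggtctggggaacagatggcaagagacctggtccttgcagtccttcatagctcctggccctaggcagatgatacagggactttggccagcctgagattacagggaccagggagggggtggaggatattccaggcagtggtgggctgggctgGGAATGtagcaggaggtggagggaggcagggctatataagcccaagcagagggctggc
Tpm1 (chr9:67049214-67049463, minus strand): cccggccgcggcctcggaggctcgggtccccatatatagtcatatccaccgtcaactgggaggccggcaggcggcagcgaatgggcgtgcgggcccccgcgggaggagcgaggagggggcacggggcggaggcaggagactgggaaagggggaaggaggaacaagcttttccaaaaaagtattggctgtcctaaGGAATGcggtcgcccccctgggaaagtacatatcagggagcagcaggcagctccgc
Tpm2 (chr4:43523555-43523804, minus strand): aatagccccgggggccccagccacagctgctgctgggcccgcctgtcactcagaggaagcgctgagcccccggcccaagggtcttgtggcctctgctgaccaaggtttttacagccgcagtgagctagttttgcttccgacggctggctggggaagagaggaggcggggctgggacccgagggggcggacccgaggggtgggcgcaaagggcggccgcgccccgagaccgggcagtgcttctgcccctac

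RefSeq held such windows for 9 of the 10 genes, all but Tnni2. Tnnt2, Tnni1 and Tpm3 had a second window, and none of those held a match. The counts here are of genes with a match in any window, whereas the shares set beside them are of single windows, so the 2 are not strictly alike. CATTCC in either direction lay in 3 of the 9, beginning 58 bases upstream of the start in Tnnc1, 56 bases upstream in Tpm1 and 27 bases upstream in Tnnt2, against 12.6% of the 32851 windows in the table. AGATAA, the motif of GATA factors, lay in Tnnt2 and Tpm3, against 9.99% of all windows. TATAAA lay in Tnnt1, 30 bases upstream, against 12.4%, and the CArG box bound by serum response factor was found in none of the 9, against 1.47%. None of these matches overlapped another. They are matches of letters within 250 bases and say nothing of binding.

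The genes differed in abundance widely. Per kilobase of the median annotated coding transcript, Tnnt2 led in Ctrl sham with 6375 ± 378 CPM per kilobase, followed by Tpm1 with 3903 ± 273, Tnni3 with 2822 ± 215 and Tnnc1 with 2125 ± 33.2. Tpm4 with 40.8 ± 1.58 CPM per kilobase, Tpm3 with 24.9 ± 1.34, Tnnt1 with 12.9 ± 1.32 and Tpm2 with 6.78 ± 0.561 formed a middle group, and Tnni2 with 0.834 ± 0.175 and Tnni1 with 0.124 ± 0.0834 closed the order. No neighbours in this order overlapped between libraries in Ctrl sham or KO sham.

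After TAC the order changed at 2 places. Tnnc1, with 2523 ± 89.4 CPM per kilobase in Ctrl TAC and 2323 ± 90.5 in KO TAC, stood above Tnni3, with 2095 ± 183 and 1822 ± 98.3, and no library of one overlapped one of the other. Tpm2 stood above Tnnt1, with overlapping libraries in Ctrl TAC and separate ones in KO TAC. Tnni2 and Tnni1 overlapped in both TAC groups. The order of the 4 abundant genes depends on the length used: divided by all annotated exon bases, of which Tnnt2 has 7752 against a median transcript of 1104.5 bases, the Ctrl sham order became Tnnc1, Tnni3, Tpm1, Tnnt2.

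Tropomyosin RNA came almost wholly from Tpm1. Per median transcript length, Tpm1 made up 98.2% ± 0.188 of the tropomyosin RNA in Ctrl sham, 98.2% ± 0.118 in KO sham, 97.6% ± 0.222 in Ctrl TAC and 97.2% ± 0.0746 in KO TAC. With all exon bases as the length the corresponding shares were 94.9%, 94.9%, 93.3% and 92.3%.

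**Figure D1:**
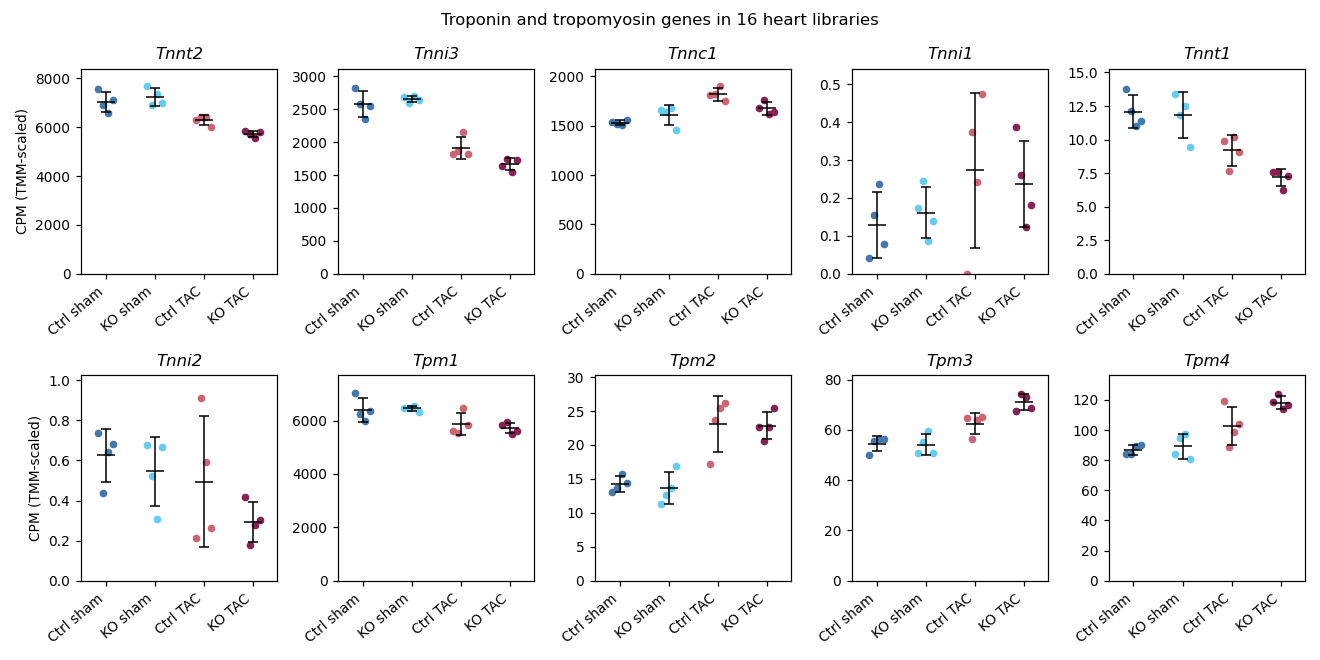
CPM after TMM scaling of the 10 genes, each on its own axis from 0, in the 4 groups of 4 libraries; points are libraries, horizontal marks are means and bars are SD. Tnni3 lies between 2343 and 2821 CPM in Ctrl sham and between 1543 and 1739 CPM in KO TAC, whereas Tpm2 lies between 13.0 and 15.7 CPM and between 20.6 and 25.5 CPM in the same groups.

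TAC against sham asks how pressure overload moved the isoforms in each genotype. In Ctrl hearts 7 of the 10 genes were called, 4 higher and 3 lower, against 20% of all genes tested (10.4% higher and 9.60% lower), and in KO hearts 7 were called, 3 higher and 4 lower, against 34.3% of all genes tested (17.8% higher and 16.5% lower). At an unadjusted p under 0.05 in edgeR it was 8 in each genotype, against 32.1% and 43.1% of all genes. In the sense of the groups not overlapping, 6 of the 10 separated in Ctrl, against 20.5% of all genes, and 7 in KO, against 34.6%. The median log2 fold change of the 10 was 0.03 in Ctrl and -0.06 in KO, against 0.00 and -0.00 for all genes tested, and the median absolute log2 fold change was 0.29 and 0.48, against 0.18 and 0.23. Tnnt2, Tnni3, Tnnt1, Tpm2, Tpm3 and Tpm4 were called in both genotypes, Tnnc1 in Ctrl and Tpm1 in KO. Without the library labelled KO TAC 4, 6 genes were called in KO, Tpm1 being the one lost. The log2 changes of the 6 were then -0.69 for Tnni3, -0.34 for Tnnt2, -0.72 for Tnnt1, 0.69 for Tpm2, 0.41 for Tpm3 and 0.42 for Tpm4.

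**Figure D2:**
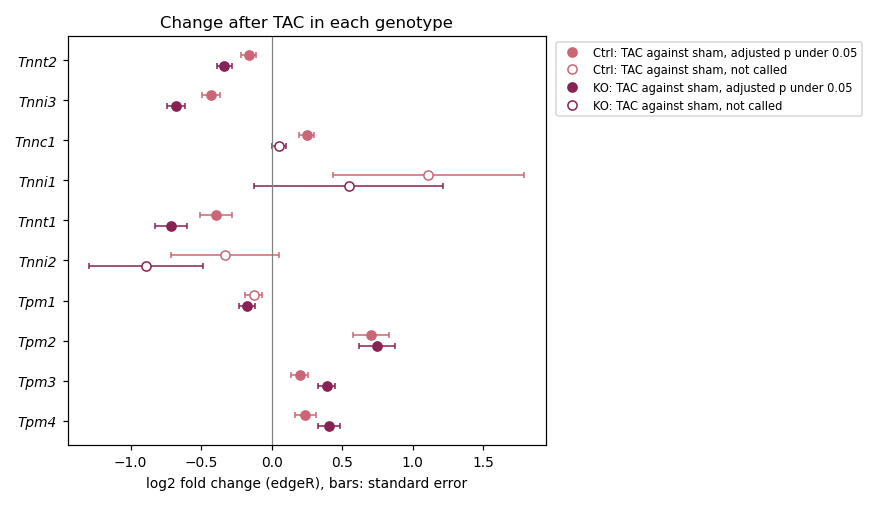
log2 fold change of each gene, TAC against sham, from edgeR; bars are standard errors, the lighter symbols are Ctrl and the darker ones KO, and filled symbols have an adjusted p under 0.05. Tnni3 lies at -0.43 and -0.68, Tnnt1 at -0.39 and -0.72 and Tpm2 at 0.70 and 0.75 in Ctrl and KO, and the bars of Tnni1 and Tnni2, the genes with the fewest counts, are the widest.

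Tnni3 (ENSMUSG00000035458, GRCm38 chr7:4518305-4524229, minus strand), the cardiac inhibitory subunit, fell in both genotypes. Its libraries held 2821, 2578, 2343 and 2552 CPM in Ctrl sham, and in KO sham 2690, 2599, 2698 and 2637 CPM. They held 1812, 1859, 2158 and 1813 CPM in Ctrl TAC and 1642, 1739, 1543 and 1722 CPM in KO TAC. Every TAC library lay below every sham library of its genotype, with Ctrl TAC 3 the closest. The change was -0.43 ± 0.06 (log2, SE, adjusted p = 0.000126) in Ctrl, in which the level fell by 25.8%, and -0.68 ± 0.07 (adjusted p = 3.50e-07) in KO, in which it fell by 37.4%. The 2 called falls held in every alternative fit run, and leaving out both Ctrl TAC 2 and KO TAC 4 gave -0.42 and -0.69. Of the exon bases of Tnni3, 4.17% lie in the neighbouring Dnaaf3 on the same strand, to which such reads could equally be assigned.

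Tnnt2 (ENSMUSG00000026414, chr1:135836354-135852260, plus strand), the cardiac troponin T, fell less. It measured 7562, 6908, 6567 and 7127 CPM in the Ctrl sham libraries and 6312, 6432, 6426 and 5999 CPM in the Ctrl TAC libraries. The KO sham libraries held 7674, 6892, 7369 and 6991 CPM and the KO TAC libraries 5844, 5734, 5557 and 5798 CPM. In both genotypes the groups did not overlap, and the gap was wider in KO. The change was -0.16 ± 0.05 (adjusted p = 0.0378) in Ctrl and -0.33 ± 0.05 (adjusted p = 8.47e-05) in KO. The Ctrl call was not stable: it was lost without Ctrl sham 1 (adjusted p = 0.119), Ctrl sham 2 (0.0560), Ctrl sham 4 (0.0874), Ctrl TAC 1 (0.0667) or Ctrl TAC 4 (0.112). It was also lost in 5 of the 10 other alternative fits. Among these were a term for animal numbers that begin with 25 (0.147) or with 33 (0.0713), and a fit of only the groups compared (0.119). With scaling to library totals the value was -0.05, adjusted p = 0.440. The KO call held in all fits run.

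Tnnc1 (ENSMUSG00000091898, chr14:31208312-31211729, plus strand), the calcium-binding subunit, did not follow its partners. Its libraries held 1539, 1518, 1509 and 1563 CPM in Ctrl sham and 1810, 1818, 1903 and 1746 CPM in Ctrl TAC, without overlap. It rose by 0.25 ± 0.05 (adjusted p = 0.00192) in Ctrl, 18.7% higher, in every fit run. In KO the libraries held 1663, 1643, 1682 and 1461 CPM after sham and 1678, 1765, 1615 and 1642 CPM after TAC. These 2 groups overlapped and the difference was 0.05 ± 0.05 (adjusted p = 0.442), although scaling to library totals gave 0.22 (adjusted p = 0.00334).

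The change of Tnnc1 against that of Tnni3 can be read within each library without any scaling, as a ratio of their counts. Tnnc1 counts came to 54.5%, 58.9%, 64.4% and 61.2% of Tnni3 counts in the Ctrl sham libraries and 61.8%, 63.2%, 62.4% and 55.4% in the KO sham libraries. The ratio was 99.9%, 97.8%, 88.2% and 96.3% in Ctrl TAC and 102.2%, 101.5%, 104.7% and 95.3% in KO TAC. All 8 TAC libraries lay above all 8 sham libraries. The Tnnt2 to Tnni3 count ratio likewise lay at 273.9% ± 6.79 in Ctrl sham and 272.2% ± 9.51 in KO sham, and at 330.8% ± 23.3 in Ctrl TAC and 345.6% ± 14.7 in KO TAC. These 2 ratios were formed after the values had been seen, so that they carry no test.

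**Figure D3:**
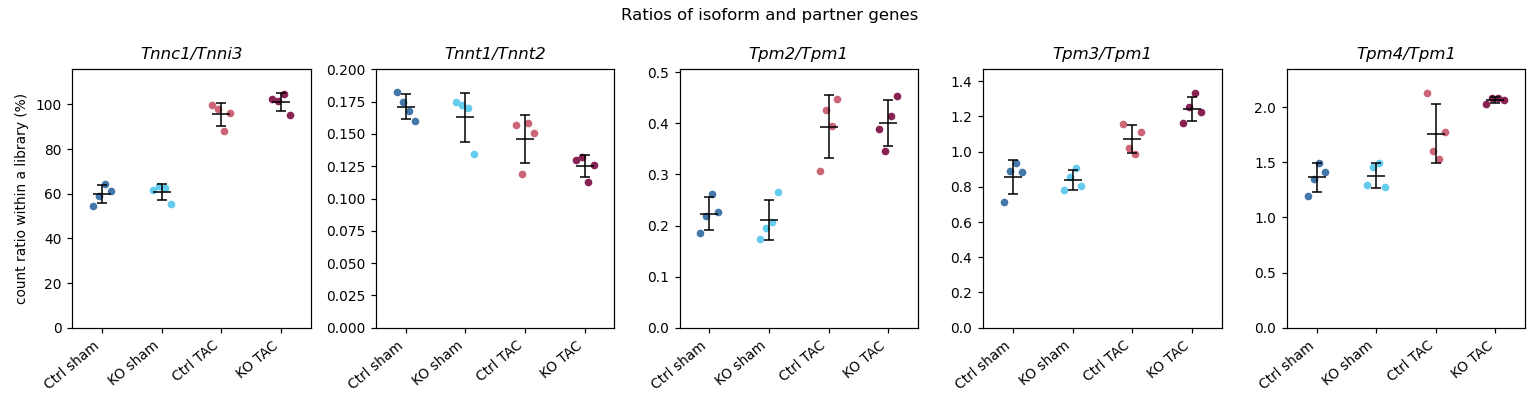
Count ratio within a library, in percent, for 5 gene pairs in the 4 groups of 4 libraries; points are libraries, horizontal marks are means, bars are SD and each axis starts at 0. The Tnnc1 to Tnni3 ratio lies between 54.5% and 64.4% in the sham libraries and between 88.2% and 104.7% in the TAC libraries.

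Among the skeletal troponins, Tnnt1 (ENSMUSG00000064179, chr7:4504570-4516382, minus strand), the slow skeletal troponin T, fell in both genotypes, as did Tnni3, the cardiac gene beside which it lies. It measured 13.8, 12.1, 11.0 and 11.4 CPM in Ctrl sham and 9.89, 7.65, 10.2 and 9.04 CPM in Ctrl TAC. The KO sham libraries held 13.4, 11.9, 12.5 and 9.42 CPM and the KO TAC libraries 7.60, 7.58, 6.27 and 7.31 CPM. Neither genotype showed overlap between sham and TAC. The change was -0.39 ± 0.11 (adjusted p = 0.0171) in Ctrl and -0.72 ± 0.11 (adjusted p = 7.87e-05) in KO. The Ctrl call was lost without Ctrl sham 1 (adjusted p = 0.0720) or Ctrl TAC 2 (0.0549). It was also lost in 2 of the 10 other alternative fits, among them that with a term for animal numbers that begin with 25 (-0.35, adjusted p = 0.140). The Tnnt1 to Tnni3 count ratio was 0.468% ± 0.0174 after sham and 0.482% ± 0.0561 after TAC in Ctrl, and 0.444% ± 0.0608 and 0.432% ± 0.0237 in KO, with overlap among all groups.

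Tnni1 (ENSMUSG00000026418, chr1:135779434-135810989, plus strand), the troponin I of the fetal heart and of slow skeletal muscle, was barely detected. The libraries held 3, 10, 14 and 4 counts in Ctrl sham and 0, 25, 16 and 34 counts in Ctrl TAC. They held 11, 14, 5 and 8 counts in KO sham and 26, 16, 8 and 15 counts in KO TAC. Ctrl TAC 1 with its 0 counts was the lowest of all libraries, and a count of 0 allows up to 3 counts. The group sums of 31 counts in Ctrl sham and 75 in Ctrl TAC had exact Poisson 95% intervals of 21.1 to 44.0 and 59.0 to 94.0, which cover counting error only, and between libraries the groups overlapped. The log2 fold changes of 1.11 ± 0.68 (adjusted p = 0.280) in Ctrl and 0.55 ± 0.67 (adjusted p = 0.573) in KO did not pass the test. Even in the highest library, Tnni1 counts came to 0.0261% of those of Tnni3.

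Tnni2 (ENSMUSG00000031097, chr7:142441808-142444410, plus strand), the fast skeletal troponin I, was also sparse. Its libraries held 53, 28, 38 and 35 counts in Ctrl sham and 12, 61, 39 and 19 counts in Ctrl TAC. They held 43, 30, 18 and 38 counts in KO sham and 28, 11, 18 and 25 counts in KO TAC. The groups overlapped in both genotypes, with Ctrl TAC 2 the highest library of all. The log2 fold changes were -0.33 ± 0.39 (adjusted p = 0.609) in Ctrl and -0.89 ± 0.40 (adjusted p = 0.0995) in KO. A fit restricted to the 2 KO groups gave an adjusted p of 0.0442.

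Tpm1 (ENSMUSG00000032366, chr9:67022590-67049406, minus strand), the alpha tropomyosin, changed little. It measured 7042, 6234, 5997 and 6364 CPM in Ctrl sham and 5598, 5553, 6459 and 5845 CPM in Ctrl TAC. The KO sham libraries held 6488, 6487, 6548 and 6323 CPM and the KO TAC libraries 5832, 5947, 5493 and 5628 CPM. The Ctrl groups overlapped through Ctrl TAC 3 and the KO groups did not overlap. The change was -0.13 ± 0.06 (adjusted p = 0.139) in Ctrl, which passed without Ctrl TAC 3 (-0.18, adjusted p = 0.0320). In KO it was -0.17 ± 0.06 (adjusted p = 0.0274), a call lost without any one of KO sham 1, 2 or 3 (adjusted p = 0.0599, 0.0601 and 0.0579) or of KO TAC 3 or 4 (0.0782 and 0.0630). The KO call was also lost in 3 of the 10 other alternative fits, among them that with a term for animal numbers that begin with 33 (-0.16, adjusted p = 0.154). Scaling to library totals gave -0.01 (adjusted p = 0.855) in KO.

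Tpm2 (ENSMUSG00000028464, chr4:43514711-43523765, minus strand), the beta tropomyosin of skeletal and smooth muscle, had the largest called rise of the 10 genes in both genotypes. It measured 13.0, 13.7, 15.7 and 14.5 CPM in Ctrl sham and 17.2, 23.7, 25.5 and 26.2 CPM in Ctrl TAC. The KO sham libraries held 11.3, 12.6, 13.6 and 16.8 CPM and the KO TAC libraries 22.7, 20.6, 22.7 and 25.5 CPM. All TAC libraries lay above all sham libraries, and Ctrl TAC 1 was the lowest of them. The rise was 0.70 ± 0.13 (adjusted p = 0.000854) in Ctrl, 62.8% higher, and 0.75 ± 0.13 (adjusted p = 0.000220) in KO, 68.2% higher. With a term for animal numbers that begin with 25, which 3 of the 4 Ctrl TAC mice carry, the Ctrl value was 0.41 and its adjusted p 0.0568.

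Tpm3 (ENSMUSG00000027940, chr3:90072649-90100902, plus strand), which encodes the slow skeletal tropomyosin and forms found in many cells, rose in both genotypes. It measured 50.2, 55.4, 56.2 and 56.3 CPM in Ctrl sham and 64.8, 56.6, 63.8 and 65.0 CPM in Ctrl TAC. The KO sham libraries held 50.9, 55.4, 59.6 and 50.9 CPM and the KO TAC libraries 67.7, 74.4, 73.1 and 68.9 CPM. The groups did not overlap, by a narrow margin at Ctrl TAC 2. The rise was 0.20 ± 0.06 (adjusted p = 0.0304) in Ctrl and 0.39 ± 0.06 (adjusted p = 8.47e-05) in KO. The Ctrl call was lost without Ctrl sham 1 (adjusted p = 0.108), Ctrl TAC 1 (0.0781), Ctrl TAC 3 (0.0644) or Ctrl TAC 4 (0.0885). It was also lost in 3 of the 10 other alternative fits, among them the term for animal numbers that begin with 25 (0.0542) and a fit of only the groups compared (0.0509). A near-identical retrogene copy, Tpm3-rs7, held group means of 1.48 to 1.94 CPM, and how reads shared by the copies were assigned is not known here.

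Tpm4 (ENSMUSG00000031799, chr8:72134975-72153142, plus strand), a tropomyosin of nonmuscle cells, rose as well. It measured 83.9, 84.0, 89.6 and 90.1 CPM in Ctrl sham and 119.2, 89.0, 98.6 and 103.8 CPM in Ctrl TAC. The KO sham libraries held 83.8, 94.7, 97.5 and 80.5 CPM and the KO TAC libraries 118.3, 123.9, 114.3 and 116.3 CPM. Ctrl TAC 2 lay within the range of Ctrl sham, whereas the KO groups were separate. The rise was 0.24 ± 0.08 (adjusted p = 0.0317) in Ctrl and 0.41 ± 0.08 (adjusted p = 0.000390) in KO. Without Ctrl sham 1 (adjusted p = 0.0861), Ctrl sham 2 (0.0785), Ctrl TAC 1 (0.122) or Ctrl TAC 4 (0.0717), or when only the groups compared were fitted (0.0626), the Ctrl call was lost. Of its exon bases 6.08% are shared with the antisense gene Gm26586, and whether strand was used in counting is not given in the sources used here.

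Markers of other cell types moved unevenly after TAC. Beside the counts of called markers given here and for cardiomyocyte and other markers below stand the shares of all genes tested. These were 10.4% higher and 9.60% lower in Ctrl, and 17.8% higher and 16.5% lower in KO. The median log2 fold change of the fibroblast markers was 0.76 in Ctrl and 1.21 in KO. It was 0.07 and 0.13 for the smooth muscle markers, of which 7 and 5 of 10 were not called. For the endothelial markers it was 0.02 and 0.04. In bulk tissue fewer cells of a type and less RNA per cell cannot be told apart. The 10 smooth muscle markers were Myh11, Acta2, Tagln, Cnn1, Smtn, Des, Mylk, Lmod1, Synpo2 and Actg2. Des is not restricted to smooth muscle, and a summed CPM is weighted to the most abundant genes. Of the 10, 2 were higher and 1 lower in Ctrl, and 4 higher and 1 lower in KO. Their summed CPM ranged from 1707 to 1850 in Ctrl sham, 1719 to 1868 in KO sham, 2193 to 2614 in Ctrl TAC and 2603 to 2732 in KO TAC. The 10 fibroblast markers summed to 673 to 814, 703 to 744, 1246 to 1731 and 1999 to 2163 CPM in the same order, with 6 and 10 of 10 higher. Their part in the rise of Tpm2, Tpm3 and Tpm4 was not tested.

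The 12 cardiomyocyte markers, which include Myh6, Actn2 and Ryr2, summed to 48393 to 55591 CPM in Ctrl sham, 48166 to 53501 in KO sham, 44119 to 48235 in Ctrl TAC and 37128 to 40156 in KO TAC. The sum is weighted to the most abundant of them, and their median log2 fold change after TAC was 0.05 in Ctrl and -0.09 in KO. Of the 12, 5 were higher and 3 lower in Ctrl, and 3 higher and 5 lower in KO. Their part in the fall of Tnni3, Tnnt2 and Tnnt1 was not tested. Skeletal muscle markers were mostly low: 9 of 12, among them Myh1, Myh2, Myh4 and Pvalb, stayed under 1 CPM in every group, and the sum of 36.4 to 48.4 CPM in the sham libraries and 68.1 to 112.8 CPM in the TAC libraries came from the other 3, Myl1, Casq1 and Mybpc2. Of the 9 skeletal markers tested, 4 were higher in Ctrl TAC, and 2 were higher and 1 lower in KO TAC. Of the 10 macrophage markers, 6 and 9 were higher in Ctrl and KO and their sum was 193 to 262 CPM in the sham libraries and 280 to 397 CPM in the TAC libraries, while the 10 endothelial markers summed to 710 to 847 and 699 to 888 CPM, with 0 and 2 higher. The atrial genes Myl7, Sln and Bmp10 were under 1 CPM in every group, while the sum of the 8 atrial markers, which include the stress gene Nppa, ranged from 113 to 218 CPM in the sham libraries and from 525 to 2564 CPM in the TAC libraries.

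Ratios of an isoform to the major gene of its family need no scaling between libraries. Of the 20 planned comparisons of such ratios 18 could be computed, since Tnni1 had 0 counts in Ctrl TAC 1, and a two-sided exact permutation test over 4 against 4 libraries cannot go below p = 0.0286. In 9 of the 18 the groups did not overlap and p was 0.0286, which is 0.0571 after Benjamini-Hochberg adjustment over the 18, so that none passed at 0.05.

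Of the 3 tropomyosin ratios, that of Tpm2 to Tpm1 had the largest log2 difference in mean after TAC. The ratio was 0.185%, 0.219%, 0.262% and 0.227% in Ctrl sham and 0.307%, 0.426%, 0.394% and 0.447% in Ctrl TAC. It was 0.174%, 0.195%, 0.208% and 0.266% in KO sham and 0.389%, 0.346%, 0.413% and 0.453% in KO TAC. No TAC library lay as low as the highest sham library of its genotype. The log2 difference in mean ratio was 0.81 in Ctrl and 0.94 in KO, with p = 0.0286 and adjusted p = 0.0571 in each by the exact permutation test. Tpm3 to Tpm1 was 0.856% ± 0.0986 in Ctrl sham and 1.07% ± 0.0795 in Ctrl TAC, and 0.838% ± 0.0557 in KO sham and 1.24% ± 0.0706 in KO TAC, with log2 differences of 0.33 and 0.57. Tpm4 to Tpm1 was 1.36% ± 0.128 and 1.76% ± 0.268 in Ctrl and 1.38% ± 0.112 and 2.07% ± 0.0253 in KO, with log2 differences of 0.36 and 0.59. Both pairs were separate in both genotypes at p = 0.0286 and adjusted p = 0.0571 by the same exact test.

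Tnnt1 relative to Tnnt2 went the other way, with less of the skeletal isoform after TAC. The ratio was 0.182%, 0.175%, 0.168% and 0.160% in Ctrl sham and 0.157%, 0.119%, 0.158% and 0.151% in Ctrl TAC. It was 0.175%, 0.172%, 0.170% and 0.135% in KO sham and 0.130%, 0.132%, 0.113% and 0.126% in KO TAC. The groups were separate in both genotypes by narrow margins, with log2 differences of -0.24 and -0.37 and p = 0.0286, adjusted p = 0.0571, by the exact permutation test. Without Ctrl TAC 2 the Ctrl difference was -0.14. In KO the Tnni1 to Tnni3 ratio differed by 1.21 on the log2 scale with overlapping libraries (exact permutation p = 0.0571, adjusted p = 0.103).

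KO against Ctrl asks what the loss of Cardinal changed under each operation. After sham surgery none of the 10 genes was called, against 0.00% of all genes tested, and none had an unadjusted p under 0.05 in edgeR, against 2.62% of all genes. DESeq2 called none of the 10 either, against 3 of all 18275 genes, and no group separated, against 1.78% of all genes. The largest difference was 0.34 ± 0.72 on the log2 scale, for Tnni1. Among the 4 abundant genes the differences were 0.04 ± 0.05 for Tnnt2, 0.05 ± 0.06 for Tnni3, 0.07 ± 0.05 for Tnnc1 and 0.01 ± 0.06 for Tpm1.

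After TAC none of the 10 genes was called between KO and Ctrl, against 2.68% of all genes tested, while 6 had an unadjusted p under 0.05 in edgeR, against 18.5% of all genes, and 4 showed no overlap, against 10.5%. Tnni3 was -0.20 ± 0.06 (adjusted p = 0.0982) and Tnnt1 -0.35 ± 0.11 (adjusted p = 0.0960) on the log2 scale, and these 2 passed in DESeq2 with adjusted p = 0.0418 and 0.0459. DESeq2 called 1180 of all 18275 genes in this comparison, against 489 in edgeR. Tnnt2 was -0.13 ± 0.05 (adjusted p = 0.177) and Tnnc1 -0.12 ± 0.05 (adjusted p = 0.211). Tpm3 was 0.18 ± 0.06 (adjusted p = 0.114) and Tpm4 0.20 ± 0.08 (adjusted p = 0.151), the latter passing without Ctrl TAC 1 (0.28, adjusted p = 0.0379). Tpm2 at -0.02 ± 0.13 and Tpm1 at -0.03 ± 0.06 were close to 0. Tnnt2, Tnni3, Tnnt1 and Tpm3 were the 4 genes without overlap, and in each of the 4 the KO TAC mean lay farther from sham than the Ctrl TAC mean. Without the library labelled KO TAC 4 none was called, and Tnni3 measured -0.22 (adjusted p = 0.118), Tnnt1 -0.36 (0.141), Tnnt2 -0.14 (0.219) and Tpm3 0.20 (0.133). In the same comparison 2 of the 12 cardiomyocyte markers were lower and 3 of the 10 fibroblast markers higher, and their part was not tested.

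The Ctrl TAC and KO TAC mice differed in their animal numbers as well as in genotype, so the difference was also taken within numbers. Among numbers that begin with 25, 1 KO TAC library (labelled KO TAC 4, the one with Cardinal at the Ctrl level) stood against 3 Ctrl TAC libraries, and among those that begin with 3, 3 KO TAC libraries stood against 1. The log2 ratio of mean CPM, KO over Ctrl, was -0.12 and -0.14 for Tnnt2, -0.17 and -0.14 for Tnni3, -0.29 and -0.47 for Tnnt1 and 0.16 and 0.15 for Tpm3. For Tnnc1 it was -0.15 and -0.10. Tpm4 gave 0.26 within the first and -0.00 within the second, Tpm2 0.02 and 0.35, and Tpm1 -0.08 and 0.04. These values rest on 1 library on one side and have no test.

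A difference between the genotypes in the response to TAC was tested as the interaction of genotype and surgery. None of the 10 genes was called, against 0.0109% of all genes tested, and 4 had an unadjusted p under 0.05 in edgeR, against 11.1% of all genes. DESeq2 called none of the 10, against 132 of all 18275 genes. The 4 with an unadjusted p under 0.05 in edgeR were Tnni3 at -0.25 ± 0.09 (adjusted p = 0.331), Tnnc1 at -0.19 ± 0.07 (adjusted p = 0.332), Tnnt2 at -0.17 ± 0.07 (adjusted p = 0.402) and Tpm3 at 0.19 ± 0.09 (adjusted p = 0.424). The call of Tnnc1 in Ctrl and not in KO, and that of Tpm1 in KO and not in Ctrl, therefore does not show that the genotypes differ. By the exact permutation test the Tpm3 to Tpm1 count ratio separated KO TAC from Ctrl TAC, 1.24% ± 0.0706 against 1.07% ± 0.0795, at p = 0.0286 and adjusted p = 0.0571.

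A list of 24 genes chosen as partners of the thin filament was counted next, and 22 of them were tested. It is wider than the thin filament itself, since it includes Mybpc2, Mybpc3, Xirp1, Xirp2, Myoz2, Pdlim5 and the kinase Tnni3k. Of these, Mybpc2, Mybpc3, Xirp1, Xirp2 and Pdlim5 were called higher after TAC in both genotypes, so the counts are not of thin filament genes alone. After TAC 10 were higher and 4 lower in Ctrl, and 9 higher and 4 lower in KO, against 20% and 34.3% of all genes tested, with median log2 fold changes of 0.20 and 0.18 against 0.00 and -0.00 for all genes tested; none was called between the genotypes under either operation or in the interaction. Without the library labelled KO TAC 4 the KO counts were again 9 and 4. Tnnt3, Tnnc2 and Mybpc2 also stand among the skeletal markers and Lmod1 among the smooth muscle markers. Acta1, the skeletal alpha actin that the fetal heart also uses, rose from 203 ± 67.9 to 3054 ± 685 CPM in Ctrl (log2 3.91 ± 0.30, adjusted p = 1.63e-06) and from 232 ± 71.5 to 2944 ± 590 CPM in KO (3.66 ± 0.30, adjusted p = 8.34e-07). Xirp2, an actin-binding protein of the intercalated disc, rose by 1.85 ± 0.16 and 2.02 ± 0.16. Tnni3k, a cardiac kinase that binds troponin I, fell by 0.49 ± 0.08 on the log2 scale in both, from 118 ± 9.01 to 83.9 ± 8.66 CPM in Ctrl and from 113 ± 10.5 to 80.3 ± 1.36 CPM in KO. Tmod4, which caps the pointed end of thin filaments in skeletal muscle, fell by 0.63 ± 0.13 in KO (adjusted p = 0.000783) and measured -0.31 ± 0.12 (adjusted p = 0.0927) in Ctrl.

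The fast skeletal partners of these troponins stayed low. Tnnt3, the fast skeletal troponin T, and Tnnc2, the troponin C of fast muscle, were under 1 CPM in every group. Tnnt3 rose by 1.54 ± 0.40 in Ctrl (adjusted p = 0.00980) and measured 0.95 ± 0.39 in KO (adjusted p = 0.0664). Tnnc2 measured -0.58 ± 0.64 in Ctrl and -0.40 ± 0.75 in KO, neither past the test.

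**Figure D4:**
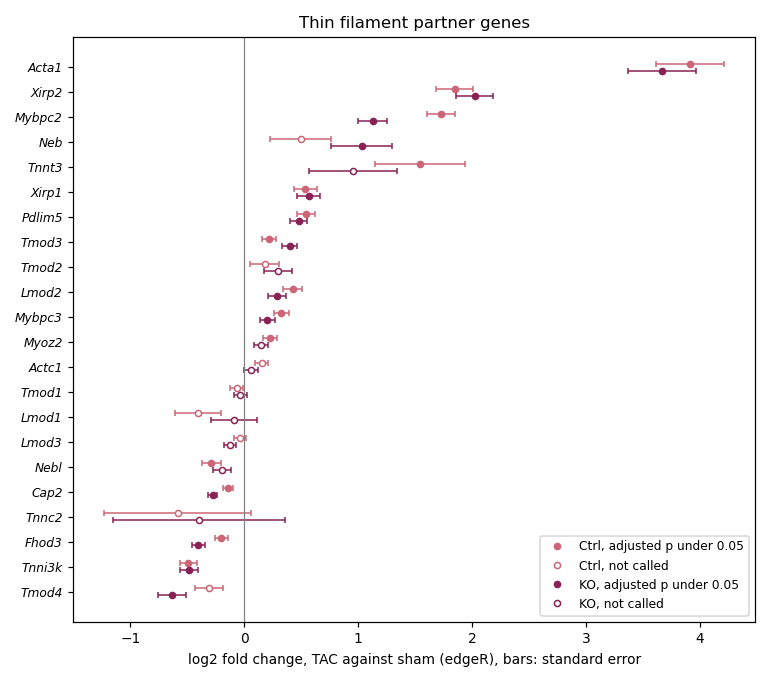
log2 fold change, TAC against sham, of the 22 tested thin filament partners in Ctrl (lighter) and KO (darker) from edgeR; bars are standard errors and filled symbols have an adjusted p under 0.05. Acta1 lies at 3.91 and 3.66 and Xirp2 at 1.85 and 2.02, whereas Tnni3k and Tmod4 lie below 0.

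A list of 26 splicing and transcription factors that act on muscle genes was counted in the same way, all of them tested. After TAC 4 were higher and 6 lower in Ctrl, and 6 higher and 6 lower in KO, against 20% and 34.3% of all genes tested, with medians of -0.04 and 0.04. Without the library labelled KO TAC 4, 6 were higher and 4 lower in KO, an alternative chosen after seeing the data. None was called in KO sham against Ctrl sham. Rbfox1, a splicing regulator of striated muscle, fell from 39.9 ± 2.56 to 19.2 ± 3.93 CPM in Ctrl (-1.06 ± 0.13, adjusted p = 4.83e-05) and from 37.5 ± 5.79 to 15.98 ± 1.84 CPM in KO (-1.23 ± 0.14, adjusted p = 4.13e-06). Sox6, which represses slow skeletal genes, fell by 0.29 ± 0.08 and 0.46 ± 0.08. Tead1, a factor that binds the MCAT element, rose by 0.31 ± 0.07 in Ctrl and 0.28 ± 0.07 in KO. Gata4, a cardiac transcription factor, rose by 0.30 ± 0.08 in KO (adjusted p = 0.00740) and measured 0.14 ± 0.08 in Ctrl (adjusted p = 0.244).

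Within the 26 factors 2 were higher in KO TAC than in Ctrl TAC and none lower, against 2.68% of all genes tested; both are named here after their values had been seen. Vgll2, a TEAD cofactor known from skeletal muscle, held 0.686, 0.807, 0.487 and 1.52 CPM in Ctrl TAC and 2.85, 3.69, 4.00 and 2.29 CPM in KO TAC, without overlap (1.86 ± 0.32, adjusted p = 0.0104). It lay between 0.125 and 0.443 CPM in the sham libraries. Ptbp3, a splicing repressor, held 25.2 to 27.5 CPM in Ctrl TAC and 30.0 to 32.0 CPM in KO TAC (0.24 ± 0.05, adjusted p = 0.0266). Without the library labelled KO TAC 4 Vgll2 measured 2.00 (adjusted p = 0.00899) and Ptbp3 0.24 (0.0390). With the term for animal numbers that begin with 25 neither passed, at 1.77 (adjusted p = 0.0972) and 0.23 (0.120), and Ptbp3 did not without Ctrl TAC 2 (adjusted p = 0.0953), Ctrl TAC 3 (0.0565), KO TAC 1 (0.0652) or KO TAC 3 (0.0903), or when only the groups compared were fitted (0.0616). Over all genes the calls between KO TAC and Ctrl TAC fell from 489 to 12 with that term and ranged from 63 without Ctrl TAC 2 to 733 without Ctrl TAC 4 when 1 library was left out. In the interaction Vgll2 measured 1.40 ± 0.53 (adjusted p = 0.338) and Ptbp3 0.29 ± 0.08 (adjusted p = 0.196).

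Finally, the genes whose pattern over the 16 libraries came closest were found for Tpm2, Tnnt1 and Tnni3, the 3 called genes with the largest change in KO. Genes with a Gm number or a Rik name, or without a symbol, were left out of the search. Likeness was the root mean square difference in log2 CPM, each gene centred on its own mean, and it is a description of libraries that share 2 operations and 1 scaling. Closest to Tnni3 were Yipf7 (0.0618), Gcdh (0.0629) and Ldhb (0.0675). Closest to Tnnt1 were Cox7a1 (0.107), Yipf7 (0.137) and Tnni3 itself (0.138), and closest to Tpm2 were Prkg1 (0.139), Dnm1 (0.147) and Numbl (0.156).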

How the data were processed

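The file deposited by the authors held 1 column of raw gene counts for each of the 16 libraries, made from poly(A)-selected TruSeq libraries sequenced with paired 150-base reads, and the submitters' processing notes name cutadapt 2.3, FastQC, HISAT2 2.1.0, edgeR 3.26.1 and the build GRCm38. The counting program, its annotation and its use of strand are not given in the sources used here, and gene counts do not resolve splice forms. Identifiers were matched to GENCODE M21 (99.5% of 55487, the rest holding 0.00355% of the counts), from which positions, exons and transcript lengths were taken. The counts were fitted in edgeR 4.0.16 (R 4.3.3) with TMM scaling, filterByExpr and 1 mean per group over all 16 libraries, followed by robust quasi-likelihood tests with Benjamini-Hochberg adjustment. DESeq2 1.42.0 was an alternative. The fit was tested on simulated counts. Count ratios were compared by exact permutation of 70 relabellings. Totals of 53169437 to 79404714 counts per library set the precision of sparse genes, and intervals cover counting error only. All 10 genes are described, and from the lists of thin filament partners and of control factors the 2 largest rises and falls among genes called in KO with a mean log2 CPM no lower than 2. The members, lists and markers (cardiomyocyte, skeletal and smooth muscle, fibroblast, macrophage, endothelial, atrial) were chosen with earlier results of these data known. Upstream sequences came from RefSeq (GRCm38.p6).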

Additional observations from a re-analysis of the deposited data

Results flagged for a closer look

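Dixon's test at the 95% level was applied to the highest and lowest of the 4 libraries in 60 combinations of a gene or ratio with a group, and chance alone gives about 1 in 20. It singled out 4 values. Tnni3 held 2158 CPM in Ctrl TAC 3, against 1812 to 1859 CPM in the other 3 Ctrl TAC libraries, and without that library the Ctrl change after TAC was -0.49 (log2). Tpm3 held 50.2 CPM in Ctrl sham 1, against 55.4 to 56.3 CPM in the others, and 56.6 CPM in Ctrl TAC 2, against 63.8 to 65.0 CPM. The Tnnt1 to Tnnt2 count ratio was 0.135% in KO sham 4, against 0.170% to 0.175% in the other KO sham libraries.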

How the results depend on the processing

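The number of the 10 genes called after TAC in Ctrl, 7, was 3 with a term for animal numbers that begin with 25, 4 when only the groups compared were fitted, 3 at an adjusted p under 0.01, and 3 to 7 when 1 library was left out (3 without Ctrl sham 1, 4 without Ctrl TAC 1 or Ctrl TAC 4). Over all genes the Ctrl calls were 2479 of 18275 with that term and 2836 of 17484 with only the groups compared, against 3652 of 18275. Without Ctrl sham 1 they were 2694 of 18502. In KO the number of the 10 called was 8 when only the groups compared were fitted and 6 to 7 when 1 library was left out. Over all genes the KO calls were 6367 of 17420 with only the groups compared. With a term for numbers that begin with 33 they were 4831 of 18275, against 6271. Between KO TAC and Ctrl TAC the number of the 10 called was 2 with DESeq2 and 0 to 1 when 1 library was left out (1 without Ctrl TAC 1), against 0. Over all genes DESeq2 called 1180 of 18275 in that comparison, against 489 in edgeR. Without Ctrl TAC 2 and KO TAC 4 the log2 difference in the Tnnt1 to Tnnt2 ratio after TAC was -0.14 in Ctrl and -0.38 in KO. Both had an exact permutation p of 0.0571, above the 0.0286 that is the smallest 3 against 4 libraries allow. Scaling to library totals moved the median log2 fold change of all genes to 0.11 in Ctrl and 0.16 in KO, and 3400 of 4335 called genes were then higher in Ctrl, against 1898 of 3652, and 5922 of 7390 in KO, against 3253 of 6271. RLE scaling and leaving out mitochondrial genes gave 7 called genes in each genotype.

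Signs that turned belonged to differences that passed no test. With library totals Tpm1 was -0.0019 in KO sham against Ctrl sham, 0.0076 in KO TAC against Ctrl TAC and 0.0095 in the interaction, and Tpm2 was 0.023 in KO TAC against Ctrl TAC. With the term for numbers that begin with 25, KO TAC against Ctrl TAC was 0.56 for Tnni1 and 0.18 for Tpm2, and the interaction of Tnni1 was 0.22. With a term for numbers that begin with 33, Tpm2 was 0.026 and Tpm4 -0.031 in sham, and the interaction of Tpm2 was -0.042. Without Ctrl TAC 2 and KO TAC 4, Tnni1 was 0.060 in KO TAC against Ctrl TAC. The cause was not tested.

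With each library left out in turn, the fold changes that changed sign, and the ratios that changed sign or side of the test, moved as follows on the log2 scale. Calls of single genes that changed side of the test, most of them after TAC in Ctrl or KO, are given where each gene is described above. In KO sham against Ctrl sham the fold change ranged from -0.10 to 0.060 for Tnnt1, -0.019 to 0.060 for Tpm1, -0.18 to 0.015 for Tpm2, -0.058 to 0.019 for Tpm3 and -0.010 to 0.081 for Tpm4. In KO TAC against Ctrl TAC the fold change ranged from -0.62 to 0.17 for Tnni1, -0.060 to 0.016 for Tpm1 and -0.13 to 0.048 for Tpm2. In the interaction the fold change ranged from -0.097 to 0.0057 for Tpm1 and -0.070 to 0.16 for Tpm2. In KO sham against Ctrl sham the difference in ratio ranged from -0.013 to 0.91 for Tnni1 to Tnni3, -0.11 to 0.011 for Tnnt1 to Tnnt2, -0.11 to 0.021 for Tpm3 to Tpm1 and -0.044 to 0.064 for Tpm4 to Tpm1. In KO TAC against Ctrl TAC the difference in ratio ranged from -0.31 to -0.17 for Tnnt1 to Tnnt2, -0.083 to 0.099 for Tpm2 to Tpm1, 0.18 to 0.26 for Tpm3 to Tpm1 and 0.18 to 0.34 for Tpm4 to Tpm1. In TAC against sham in Ctrl the difference in ratio ranged from -0.28 to -0.14 for Tnnt1 to Tnnt2, 0.73 to 0.93 for Tpm2 to Tpm1, 0.24 to 0.37 for Tpm3 to Tpm1 and 0.27 to 0.43 for Tpm4 to Tpm1. In TAC against sham in KO the difference in ratio ranged from -0.46 to -0.32 for Tnnt1 to Tnnt2.

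No paired analysis was possible because the labels give the groups no shared replicate numbers. The knockout library with Cardinal at the Ctrl level, 4 libraries per group, and the sparse counts of Tnni1 and Tnni2 limit the precision.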
